A study of Mus musculus with 8 samples.

Results

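The immunoglobulin light chain loci, Igk on chromosome 6 and Igl on chromosome 16, were examined for binding of Rad21 in CH12F3 cells, a mouse B lymphoma line. Rad21 is the subunit that closes the cohesin ring, which extrudes chromatin loops and is halted at bound CTCF. Every deposited peak that overlapped the mm9 window of Igk (67450000 to 70750000) or of Igl (18950000 to 19300000) was taken. These were 341 of 199072 peaks. Peaks that overlapped by at least 1 bp were merged over all libraries, which gave 110 light chain regions, 82 in Igk and 28 in Igl, of 64772 regions in all.

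Rad21 had been measured by ChIP-seq in 8 libraries of 4 genotypes, 2 libraries each, all engineered at the heavy chain locus Igh. In the PS_Ia line (Iγ3-PS-Iα-AID-/-), a Sg3-Sa deletion left partial Sg3 and Sa switch regions, in aInv cells. The PS_Ca line (Iγ3-PS-Cα-AID-/-) had that same deletion in cells with VH-3'BCEs deleted from the non-coding IgH allele. In the FS_Ia line (Iγ3-FS-Iα-AID-/-), a Cg3-Ca deletion kept both switch regions at full length, in aInv cells. The FS_Ca line (Iγ3-FS-Cα-AID-/-) carried a Cg3-Ia deletion with full-length switch regions, again with VH-3'BCEs deleted from the non-coding IgH allele. All 4 lines were AID-/-, without the cytidine deaminase that breaks switch regions, and had received anti-CD40, IL4 and TGF-β for 3 days. The labels name no edit of Igk or Igl. Nothing in them tells whether a line is 1 clone or whether its 2 libraries are separate cultures, so p-values measure only the spread between these libraries. The lists held 11288 to 47461 peaks, and a called summit was at least 3 to 5 fragments high, depending on the library. A region missing from a list did not reach the threshold, which does not show it unbound. The alleles and their rearrangements were not separated. Peak lists give no expression, so the B cell identity of the line was not checked against marker genes.

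In B cell precursors, a V segment of a light chain locus is joined to a J segment by the RAG recombinase, and the joined exon is spliced to a constant gene such as Igkc or Iglc1. Cohesin loops help bring distant V segments near the J segments. In Igk the stretch between the last V and the first J segment is known for the CTCF-bound elements Cer and Sis, which temper the use of nearby V segments, and enhancers lie within and beyond the J-C region. In mouse Igl, V and J-C units alternate over a much shorter stretch.

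By gene order in the RefSeq table of GRCm38, which is another build than that of the peaks and was used for names only, Igk holds 102 V segments and 60 V pseudogenes, then 5 J segments and Igkc. The protein-coding gene after Igkc is Rpia, which encodes an enzyme of the pentose phosphate pathway. Igl runs from Iglc1 through Iglc3, Iglv1, the pseudogene Iglc4, Iglc2 and Iglv3 to Iglv2, and is followed by the olfactory receptor gene Olfr164. The parts of both loci used below are approximate mm9 windows, and no region was assigned to a single segment.

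Rad21 peaks were called in all 4 parts of Igk set here, but few sites were held by every library. Of the 82 Igk regions, 8 (9.76%) had a peak in all 8 libraries and 36 (43.9%) in 1 library only. In Igl it was 3 of 28 (10.7%) in all 8 and 14 (50%) in 1. Over the whole series the shares were 10.4% and 52.6%. Igk had 24.8 regions per Mb, against 22.1 per Mb over chromosome 6 and 24.6 per Mb over all chromosomes. Igl had 80.0 regions per Mb, against 34.7 per Mb over chromosome 16. Regions of all 8 libraries lay at 2.42 per Mb in Igk and 8.57 per Mb in Igl, against 2.56 per Mb over all chromosomes. Their median percentile rank by fold enrichment, where 0 is the strongest peak of a list, was 13.4 in Igk and 16.6 in Igl, and 22.6 for all such regions of the series. These densities and ranks are descriptions, and no test set the loci apart from the rest.

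**Figure D1:**
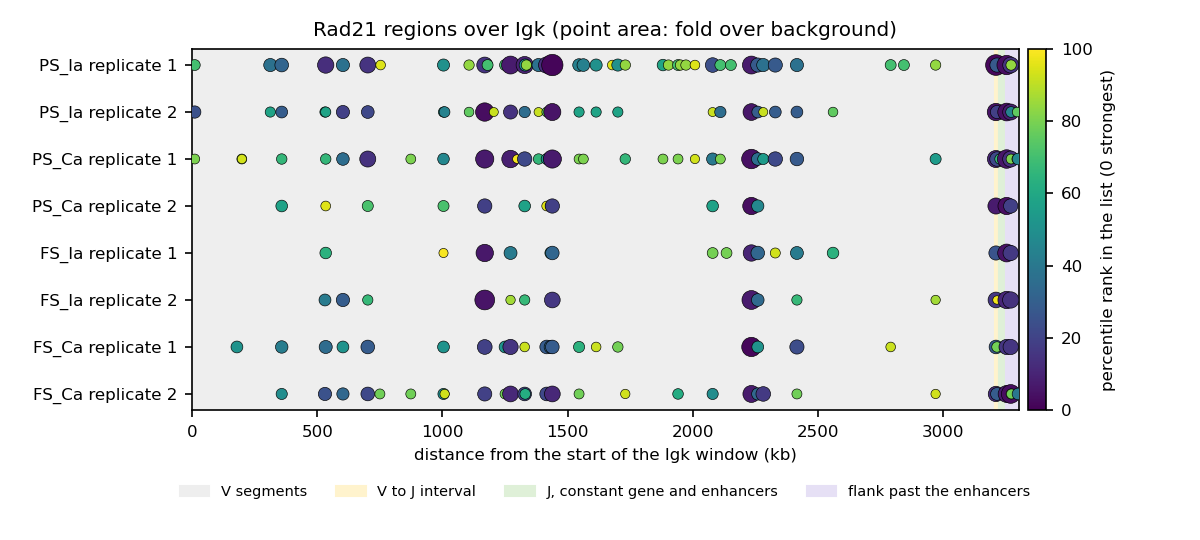
Rad21 regions over the Igk window, with the distance from its start in kb on the x axis and the 8 libraries on the y axis. Each point is a region held by that library, its area follows the fold enrichment and its colour the percentile rank (0 strongest), and shading marks the 4 parts. Points line up between libraries at 8 places, and the V segments nearest the J segments are nearly empty.

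The V segment part, 3205 kb long, held 67 regions, of which 5 were found in all 8 libraries, 33 in 2 to 7 and 29 in 1. They were not spread evenly. Cut into 4 blocks of 801 kb from the distal end, the V part held 14, 28, 20 and 5 regions. Of these, 6, 14, 8 and 1 were found in 1 library only, and 4, 8, 3 and 1 in at least 5. The 5 regions of all libraries lay in the middle blocks, 3 in the second and 2 in the third. The block next to the J segments had 6.24 regions per Mb, the lowest of the 4. Its only region of more than 4 libraries, at 69864414 to 69865796, was found in 7 and missing from PS_Ca replicate 2, with folds of 4.62 to 9.33. From the last V region of all libraries to the first one of the V to J interval, 950 kb had no region held by all 8 lists. Between 70419263 and 70658951, a stretch of 240 kb, no library had any peak. It was the longest gap between neighbouring Igk regions.

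The best-ranked V region lay at 69682659 to 69684100. Its fold enrichment was 14.8 and 12.9 in PS_Ia replicates 1 and 2, and 17.5 and 13.9 in PS_Ca. It was 12.4 and 16.4 in FS_Ia, and 17.2 and 13.3 in FS_Ca. The authors' fold is (summit height + 1) over (expected background of the list + 1), not the plain ratio of the 2. The summits were 15 to 30 fragments high and fell within 104 bp of each other. All 8 libraries ranked this region in their strongest 10.3% of peaks, with a mean percentile of 5.95. A weaker neighbour at 69708227 to 69709372, with folds of 6.44 to 9.25, was also in every list.

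In the second block, 2 strong regions were common to all libraries. The one at 68617943 to 68619515 had folds of 11.7 and 15.6 in PS_Ia, 15.2 and 9.45 in PS_Ca, 13.9 and 18.0 in FS_Ia, and 10.0 and 9.24 in FS_Ca (replicates 1 and 2 each). The one at 68887672 to 68889447 had folds of 21.0 and 13.4 in PS_Ia, 15.2 and 9.45 in PS_Ca, 8.51 and 11.4 in FS_Ia, and 8.61 and 11.6 in FS_Ca. The first had the higher fold in PS_Ia replicate 2, both FS_Ia libraries and FS_Ca replicate 1, the second in PS_Ia replicate 1 and FS_Ca replicate 2, and in PS_Ca they were level. About 5.02 kb before the second, at 68881408 to 68882653, lay a weaker site of all libraries, with folds of 4.91 to 9.25 and summits of 5 to 15 fragments.

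Among V regions of 2 to 7 libraries, the best mean rank (26.4) was at 68720951 to 68722535. There the fold was 14.8 and 9.13 in PS_Ia, 14.1 in PS_Ca replicate 1, 7.74 and 4.09 in FS_Ia, and 10.8 and 11.6 in FS_Ca, with no peak in PS_Ca replicate 2, the shortest list. The summits were 4 to 24 fragments high. The next were at 68052163 to 68053053 (6 libraries, folds of 6.46 to 8.18), 68150975 to 68152549 (7 libraries, folds of 4.91 to 11.9), 69778462 to 69779131 (4 libraries, folds of 4.64 to 9.59) and 69864414 to 69865796, given above. V regions of a single library were low, with folds of 3.39 to 6.46.

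The V to J interval, set here as a window of 17 kb, held the most regions for its length of the 4 parts of Igk: 4 regions, of which 2 were found in at least 6 libraries. The stronger, at 70658951 to 70660512, was in every list. Its folds were 19.7 and 14.0 in PS_Ia replicates 1 and 2, 13.5 and 11.97 in PS_Ca, 9.28 and 11.4 in FS_Ia, and 8.61 and 11.0 in FS_Ca. Summits were 31 and 25 fragments high in PS_Ia, 23 and 18 in PS_Ca, 11 and 13 in FS_Ia, and 11 and 18 in FS_Ca. All 4 PS folds were above all 4 FS folds, the nearest being 11.97 and 11.4, as in 0.83% of the 6747 regions that all 8 libraries held, while in 0.43% all 4 FS folds were the higher. Of the 11 light chain regions among these, 1 and 0 did so. Because a fold is scaled to its own list, the region was also ranked by fold within those 6747 regions, the same set in each library. Its percentile there was 5.25 and 31.4 in PS_Ia, 42.9 and 11.0 in PS_Ca, 47.2 and 50.8 in FS_Ia, and 59.9 and 52.0 in FS_Ca. The PS ranks were stronger without overlap here too, as in 1.27% of all such regions, and FS ranks were so in 1.62%. Of the 11 light chain regions, 2 and 0 did so, the other being the V region at 68887672 to 68889447. The V to J region was singled out after its values were seen and the separation was not tested. The prefixes of the peak names also differ between PS and FS libraries, which cannot be told apart from switch length.

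The second site of the interval, 2.31 kb farther towards the J segments at 70662817 to 70664780, was found in 6 libraries. Folds were 9.25 and 8.06 in PS_Ia, 9.59 in PS_Ca replicate 1, 3.27 in FS_Ia replicate 2, and 5.02 and 7.51 in FS_Ca. It was missing from PS_Ca replicate 2 and FS_Ia replicate 1, the lists with the fewest peaks. Its summits lay up to 1247 bp apart between libraries, so the merged region may hold more than 1 site. Between these lay a region of 2 libraries, at 70660637 to 70661428 (folds of 4.83 in PS_Ia replicate 2 and 4.62 in FS_Ca replicate 2), and 1 of PS_Ca replicate 1 alone, at 70662546 to 70662791 (fold 3.95).

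**Figure D2:**
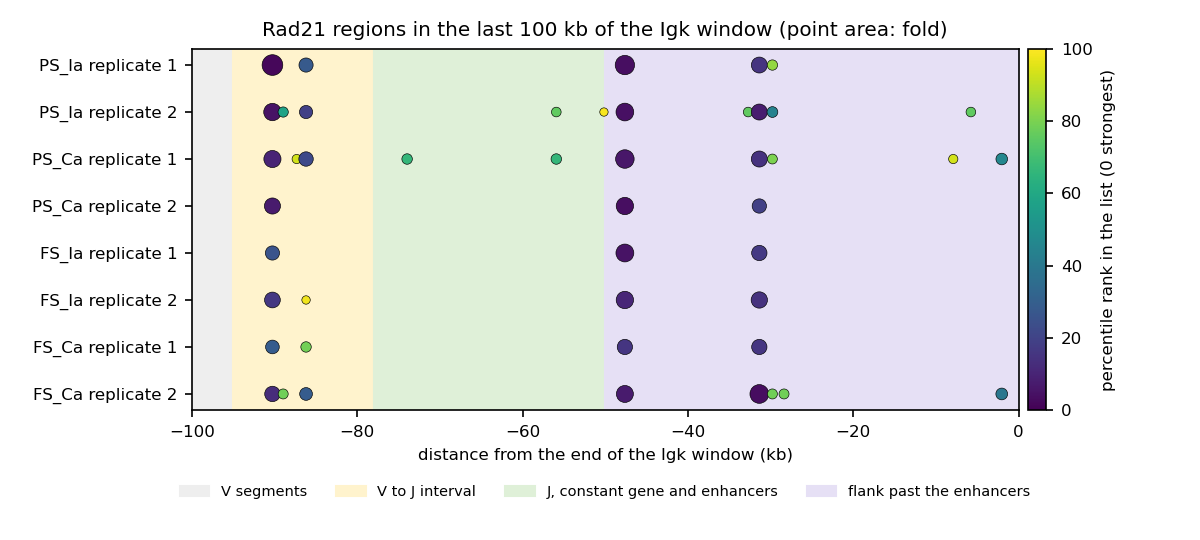
The last 100 kb of the Igk window, with the distance from its end in kb on the x axis, libraries on the y axis, and area, colour and shading as in the map of the whole locus. All 8 libraries hold 1 region in the V to J interval and 2 in the flank, whereas the part with the J segments, Igkc and its enhancers holds 3 weak regions of at most 2 libraries.

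Over the J segments, Igkc and the enhancers, a window of 28 kb, no region was shared by more than 2 libraries. The region at 70693814 to 70694337 was held by PS_Ia replicate 2 (fold 4.30) and PS_Ca replicate 1 (fold 5.08). Single libraries held 70675904 to 70676149 (PS_Ca replicate 1, fold 5.08) and 70699714 to 70699964 (PS_Ia replicate 2, fold 3.22). These summits were 5 to 8 fragments high. No region of more than 2 libraries was thus called in this window, while all 8 lists had 1 in the interval before it and 2 in the flank after it. The window ends at 70700000, an approximate edge, and the first of those flank regions starts at 70701089. Other edges were not tried.

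Past the enhancers, 2 regions were in every list. The first, at 70701089 to 70703654, had the second-best mean rank of Igk, with folds of 17.3 and 14.5 in PS_Ia, 15.8 and 13.9 in PS_Ca, 14.7 and 13.9 in FS_Ia, and 10.8 and 13.3 in FS_Ca. Its mean percentile was 7.03, and its summits fell within 215 bp. The second, at 70717935 to 70719338, had folds of 11.7 and 11.8 in PS_Ia, 11.9 and 9.45 in PS_Ca, 10.8 and 12.3 in FS_Ia, and 10.8 and 16.2 in FS_Ca. From the V to J site to the first was 40.6 kb, and from the first to the second 14.3 kb. Of the 6 other regions of the flank, 1 was found in 4 libraries, 1 in 2 and 4 in 1.

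Igl has few V segments and a short length. Its tallest summit in a library was 10 to 53 fragments high, against 18 to 33 in Igk, and it exceeded the tallest of Igk in 5 of 8 libraries. Its best-ranked region, at 19002077 to 19004997 in the window of the constant end that holds Iglc1, had folds of 29.6 and 24.7 in PS_Ia replicates 1 and 2, 24.8 and 6.93 in PS_Ca, 13.9 and 20.4 in FS_Ia, and 13.6 and 27.7 in FS_Ca. Summits there reached 47 fragments in PS_Ia replicate 1 and in FS_Ca replicate 2, whereas PS_Ca replicate 2 had 10. Among the 6747 regions of all libraries, 7 libraries ranked it in the strongest 15.1%, and PS_Ca replicate 2 at the 59.9th percentile.

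The second region of all libraries, at 19145765 to 19148403 between Iglv1 and Iglc2 by the approximate windows, had folds of 29.6 and 29.0 in PS_Ia, 14.7 and 5.04 in PS_Ca, 11.6 and 13.1 in FS_Ia, and 11.5 and 19.6 in FS_Ca. Both PS_Ia folds were above those of the other 6 libraries, as in 2.95% of the 6747 regions and in 2 of the 11 light chain regions by fold, and as in 2.77% and 1 of 11 by rank within these regions. The last, at 19262255 to 19264808 near the Iglv2 end, had folds of 26.5 and 11.8 in PS_Ia, 15.8 and 5.67 in PS_Ca, 7.74 and 8.99 in FS_Ia, and 11.5 and 19.1 in FS_Ca. PS_Ca replicate 2 was the lowest library at each of the 3. Chromosome 16 as a whole held 3.10% and 2.81% of the peaks of PS_Ca replicates 1 and 2, against 4.68% to 5.67% in the other 6 libraries, and its part in the Igl values was not tested.

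**Figure D3:**
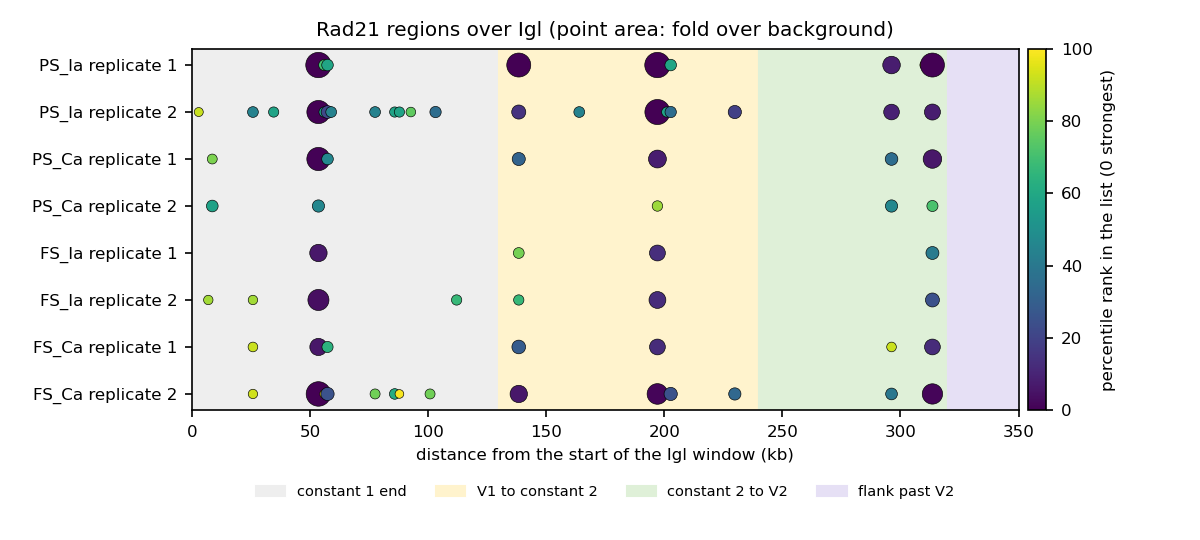
Rad21 regions over the Igl window, with the distance from its start in kb on the x axis, the 8 libraries on the y axis, and point area and colour for fold and percentile rank. Shading marks the approximate parts. The 3 columns of points in all 8 libraries lie at 53.5, 197 and 314 kb, and the points of PS_Ca replicate 2 are small in each.

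Other Igl regions of several libraries stood beside these. At 19086935 to 19089788, 7 libraries had a peak, with a fold of 26.5 and 9.13 in PS_Ia, 7.90 in PS_Ca replicate 1, 5.42 and 4.91 in FS_Ia, and 8.61 and 13.9 in FS_Ca. PS_Ia replicate 1 was the highest there, at a summit of 42 fragments against 5 to 23 in the others. At 19245235 to 19247190, 6 libraries had a peak, with folds of 14.2 and 11.3 in PS_Ia, 7.34 and 6.93 in PS_Ca and 4.30 and 6.35 in FS_Ca, and none in FS_Ia. Its summits were 5 to 22 fragments high. The region at 19006540 to 19008228 was found in 5 libraries (folds of 5.74 to 8.09), and 18975472 to 18976133 in 4 (folds of 4.04 to 5.37). The remaining regions of 2 or 3 libraries numbered 7. Of these, 6 were held by both PS_Ia replicate 2 and FS_Ca replicate 2, with lists of 47461 and 31550 peaks. PS_Ca replicate 1, with 30982 peaks, had no peak in them. The share of peaks on chromosome 16 was 5.67%, 5.61% and 3.10% in these lists, in that order. The part of list length or of this share was not tested. The flank past Iglv2 held no peak in any list.

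**Figure D4:**
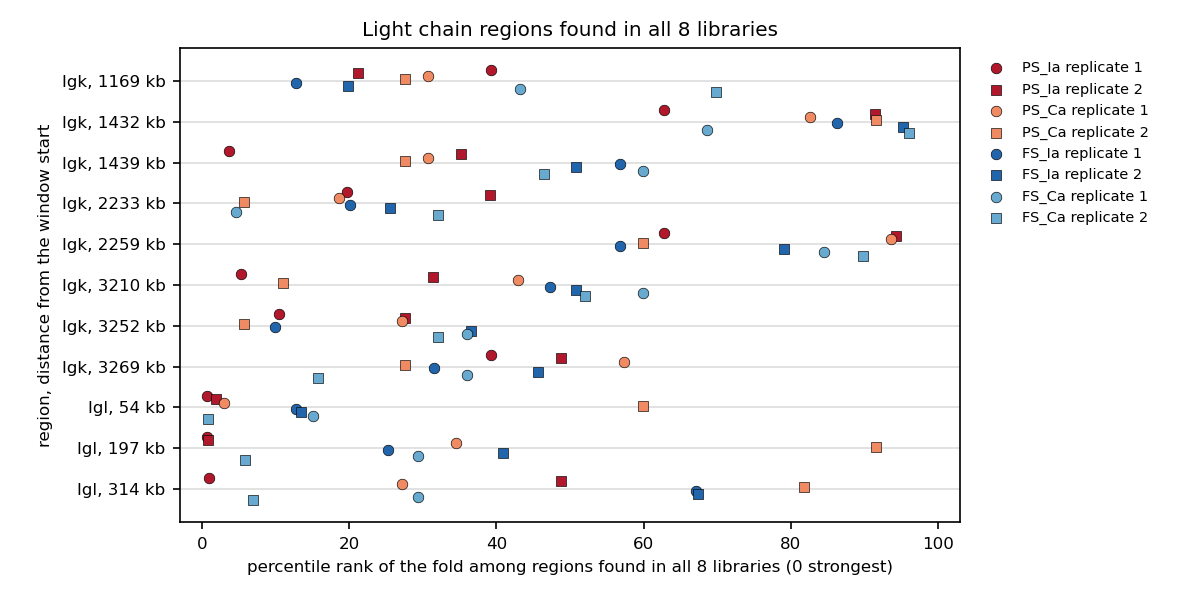
The 11 light chain regions found in all 8 libraries, on the y axis by their distance from the window start, with the percentile rank of their fold among the 6747 regions of all libraries on the x axis (0 strongest). Colours mark the genotype, circles replicate 1 and squares replicate 2. PS_Ca replicate 2 lies far to the right at the first 2 Igl regions, at 59.9 and 91.6.

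Ia against Ca, called orientation here, was compared over 4 libraries each. Both Ia lines were in aInv cells and both Ca lines in cells with the deletion on the non-coding IgH allele. The contrast cannot be told apart from these cell backgrounds. Ia libraries held 68, 71, 20 and 26 light chain peaks (PS_Ia replicates 1 and 2, then FS_Ia) and Ca libraries 52, 20, 32 and 52 (PS_Ca, then FS_Ca). The ranges overlapped. Ia libraries averaged 46.2 ± 27.0 and Ca libraries 39.0 ± 15.8 peaks (SD, n = 4 each). The difference was 7.25 peaks, with p = 0.629 in an exact permutation test, two-sided as all such tests here, and p = 0.838 after adjustment over 4 tests. Without PS_Ia replicate 2, the longest list, it was -1. Since the lists differ in length, the number was also taken per 10000 peaks of the list. On that scale Ia libraries held 18.1 ± 10.2 and Ca libraries 17.4 ± 0.956 light chain peaks (difference 0.703, exact permutation p = 1; adjusted p = 1).

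That comparison rested on PS_Ia replicate 1. It held 33.0 light chain peaks per 10000, against 14.5 and 9.94 in FS_Ia, 14.96 in PS_Ia replicate 2 and 16.5 to 18.6 in the Ca libraries. Without it, all 3 Ia libraries lay below all 4 Ca libraries, a difference of -4.28 per 10000 (exact permutation p = 0.0286, unadjusted, the smallest that 3 against 4 allows; p over all alternatives of this result was 0.0286 to 1). The peak names fall into 3 sets by prefix, and Ia minus Ca per 10000 was 16.3 in the set of PS replicate 1, -2.76 in that of PS replicate 2 and -5.34 in the FS set. The sign did not hold within sets.

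**Figure D5:**
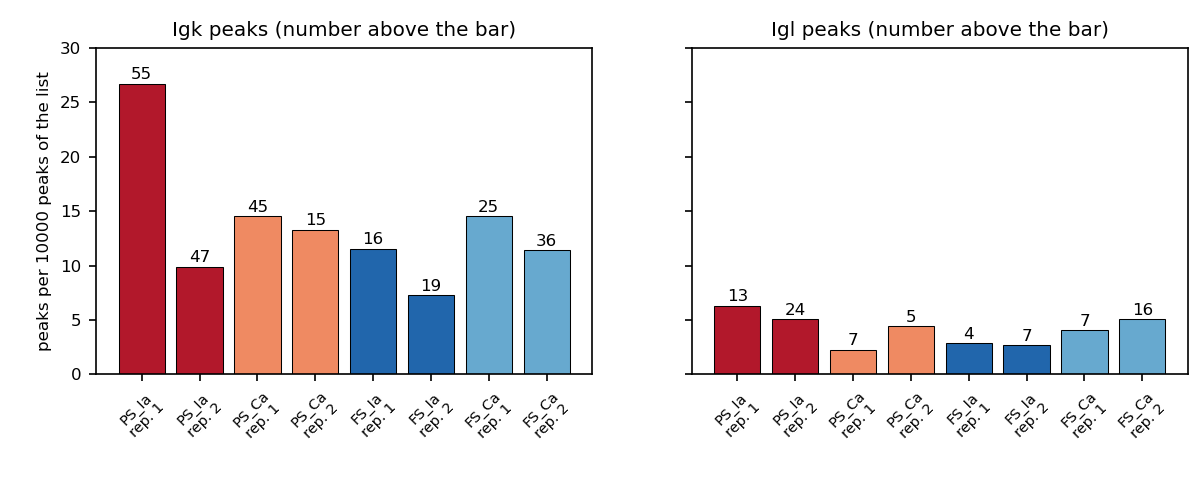
Peaks in Igk (left) and Igl (right) per 10000 peaks of each library's list, on axes that start at 0, with the number of peaks above each bar and the 8 libraries on the x axis. PS_Ia replicate 1 stands at 26.7 in Igk, above the 7.26 to 14.5 of the other 7.

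Most of the excess of PS_Ia replicate 1 was in Igk. With 20582 peaks in its list it held 55 Igk peaks, more than PS_Ia replicate 2 with 47 of 47461. Of its 54 Igk regions, 49 lay in the V segments and 14 were found in no other library. Over the whole series, 1550 regions were found in this library alone, from its list of 20582 peaks. When every list was cut to its 11288 strongest peaks, it still held 34 light chain peaks, against 11 to 23 in the other 7. The rest of chromosome 6 held 5.41% of its peaks, against 4.65% to 5.36% in the others.

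Switch length was compared in the same way. PS libraries held 68, 71, 52 and 20 light chain peaks and FS libraries 20, 26, 32 and 52, so the ranges overlapped. The mean was 52.8 ± 23.4 in PS and 32.5 ± 13.9 in FS (SD, n = 4 each), which differ by 20.2 peaks (p = 0.257 by exact permutation; adjusted p = 0.629). Per 10000 peaks it was 20.6 ± 8.35 in PS and 14.9 ± 3.69 in FS, which differ by 5.76 (p = 0.314 by exact permutation; adjusted p = 0.629). Without PS_Ia replicate 1 this difference was 1.62. No set of peak names holds both PS and FS libraries, and these sets cannot be told apart from switch length.

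By presence or absence of a peak, no light chain region separated all 4 libraries of one kind from all 4 of the other. Of the 110 regions, 0 were found in all 4 Ia and no Ca library, as were 0.0247% of all regions, and 0 in all 4 Ca and no Ia library (0.0232% of all), or 0.0479% in either direction. Likewise, 0 were found in all 4 PS and no FS library (0.0401% of all) and 0 in all 4 FS and no PS library (0.00772% of all), or 0.0479% in either direction. With Fisher's exact test over all 64772 regions, the lowest p among the light chain regions was 0.429 for orientation and 0.143 for switch length (adjusted p = 1 for both), and 0 were at an unadjusted p under 0.05. No region of the genome passed after adjustment, since 4 against 4 libraries allow no p below 0.0286. On chromosome 12, which carries the edited Igh, lay 2 of the 31 regions that followed orientation and 2 of the 31 that followed switch length; chromosome 12 held 4.98% of all regions.

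The p of 0.143 came from 3 V regions of Igk, each found in 3 of 4 PS and no FS library. The first, at 67460612 to 67461288, had folds of 5.55 and 6.98 in PS_Ia and 4.51 in PS_Ca replicate 1. The others, at 68833292 to 68834023 and 69559108 to 69559786, had folds of 3.76 to 8.01 and 4.51 to 5.91 in those libraries. All 3 were missing from PS_Ca replicate 2, the shortest list. Without that library they were in all PS and no FS library, as were 0.605% of all regions, and 0 light chain regions were in all FS and no PS library (0.00778% of all). In lists of equal length the Igl region at 19245235 to 19247190 was in all 4 PS and no FS list, against 0.071% of all regions, and 0 of the 42 light chain regions of those lists were in all FS and no PS list (0.118% of all).

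Genotypes, with 2 libraries each, were described and not tested, and the pattern given next was picked after the values were seen. FS_Ia lacked 3 light chain regions that all 6 other libraries held, against 0.3% of all regions: 67807645 to 67808741 (folds of 5.08 to 8.63) and 68865084 to 68866963 (folds of 4.30 to 12.3) in Igk, and 19245235 to 19247190 in Igl. PS_Ia, PS_Ca and FS_Ca each lacked 0 regions that the other 6 libraries held, against 0.0185%, 0.054% and 0.0139% of all regions. Of the 26 light chain regions found in at least 5 libraries, FS_Ia replicates 1 and 2 held 17 (65.4%) and 18 (69.2%), and of all such regions of the series 76.7% and 87.2%. The expected background of the list was lowest in FS_Ia, at 0.293 and 0.223 fragments, against 0.394 to 0.862 in the other libraries. Its part in the missing regions was not tested. PS_Ca replicate 2 held 19 of the 26 (73.1%) and 60.6% of all. The other 5 libraries held 25 or 26 of the 26, and 85.3% (FS_Ca replicate 1) to 98.5% (PS_Ca replicate 1) of all such regions. Both PS_Ia libraries alone held 2 regions (background 0.627%), at 67762328 to 67763022 and 68555662 to 68556563, and both PS_Ca libraries alone 1 (background 0.181%), at 18958467 to 18958714, none with a fold above 8.01. Both FS_Ia libraries alone held 0 (background 0.0587%), as did both FS_Ca libraries (background 0.116%).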

How the data were processed

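Rad21 ChIP-seq peaks of 8 libraries were used. Per the submitters' processing notes, the authors used MACS2 2.2.7.1 and deepTools 3.5.1, besides Bowtie2 2.4.4 and SAMtools 1.15.1, with the build mm9; settings, a control library and the peak threshold are not stated there. Each deposited list is of 1 library, with the authors' score, fold ratio at the summit, −log10 p and −log10 q, and where the summit lies. The folds in the deposited lists are (height + 1) over (background + 1), with 1 background of 0.223 to 0.862 fragments per library; heights came out whole within 0.01.

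Peaks overlapping by at least 1 bp were merged over the genome, with coordinates given 1-based. The best peak of a library stood for it in a region, and percentile ranks were taken by fold within a list. Peak numbers were compared by exact permutation, presence by Fisher's exact test over all regions with Benjamini-Hochberg adjustment. The parts of Igk end 95, 78 and 50 kb before the window's end, those of Igl 130, 240 and 320 kb after its start; both were set from general knowledge of the loci. A region belongs to the part that holds its midpoint. Named were regions of all 8 libraries, those of the V to J interval and constant end, Igl regions of at least 2 libraries and the 5 best V regions of 2 to 7. The members and lists were chosen with earlier results of these data known. Alternatives were a −log10 q of at least 5, lists of 11288 peaks, summits ± 100 bp, Igk alone, each library left out, and libraries of the same number as pairs; scaling to chromosomes 6 and 16 and a block by set of peak names were added after seeing the data. No mm9 sequence was used here, so none is printed. Python 3.11.15 was used with scipy 1.17.1, pandas 2.3.3, numpy 2.4.6 and, for plots, matplotlib 3.10.9, and the scripts were tested on simulated data.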

Additional observations from a re-analysis of the deposited data

Results flagged for a closer look

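PS_Ia replicate 1 held 33.0 light chain peaks per 10000, far from the nearest PS library (17.7) and from the nearest of all 8 (18.6). For Igk alone it held 26.7 per 10000, against 14.5 in the nearest library. PS_Ca replicate 2 stood apart at 2 Igl regions of all libraries: its percentile rank among shared regions was 59.9 at 19002077 to 19004997, where the nearest library had 15.1, and 91.6 at 19145765 to 19148403, where the nearest had 40.9. Of 31 groups of values looked at for such gaps, 5 had one, and chance flags about 1 in 20. These groups overlap, and the flags came only from PS_Ia replicate 1 and PS_Ca replicate 2. The count therefore cannot be set against that rate.

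The number of light chain peaks differed between Ia and Ca in opposite directions in PS and FS libraries. Both PS_Ia libraries (68 and 71) were above both PS_Ca libraries (52 and 20), and both FS_Ia libraries (20 and 26) were below both FS_Ca libraries (32 and 52). The Ia minus Ca difference in PS exceeded that in FS by 52.5 peaks. This difference was not tested. The lists differ in length, from 47461 peaks in PS_Ia replicate 2 to 11288 in PS_Ca replicate 2, and per 10000 peaks Ia minus Ca was 16.3 for PS replicate 1, -2.76 for PS replicate 2 and -5.34 in FS.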

How the results depend on the processing

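For the 4 comparisons of peak number, 1 of 56 alternative tests gave p under 0.05: orientation per 10000 peaks without PS_Ia replicate 1. The sign of that difference turned to -1.50 with a −log10 q of at least 5, to -1.11 in lists of equal length and to -18.5 per 10000 peaks of chromosomes 6 and 16, an alternative chosen after seeing the data, and ranged from -4.28 to 3.42 over the libraries left out. The orientation difference in peak number turned to -1.25 in lists of equal length and was 0 with a −log10 q of at least 5. It ranged from -1 to 16 over the libraries left out, and the cause was not tested. The switch length difference kept its sign in every alternative run but fell to 4.25 peaks and 3.77 per 10000 in lists of equal length and to 6.5 peaks and 3.10 per 10000 at the stricter threshold, and was 14.2 to 31.2 peaks and 1.62 to 7.65 per 10000 over the libraries left out. Igl regions of all libraries numbered 1 instead of 3 at the stricter threshold and 2 with summits ± 100 bp. Those of Igk numbered 7 instead of 8 at both of these settings and 6 in lists of equal length. Over the libraries left out, Igk had 8 to 10 and Igl 3 to 4. Regions following switch length numbered 1 instead of 0 in lists of equal length, and 0 to 3 over the libraries left out; those following orientation stayed at 0. With a replicate block, the orientation difference of 7.25 peaks had an exact permutation p of 0.667 and the switch length difference of 20.2 an exact permutation p of 0.278, and no call changed. Deviations of same-numbered libraries were hardly correlated, with r = -0.069 to 0.127 over 6 genotype pairs, and the labels do not pair such libraries. The r was highest for PS_Ia and PS_Ca, whose same-numbered libraries also share a set of peak names. With these sets as a block, also chosen after seeing the data, the orientation differences had exact permutation p of 0.75 for the number and 1 per 10000, and switch length cannot be fitted within sets. Summits of few fragments limit what the short lists can show.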
